A study of Homo sapiens with 3 samples.

Results

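The genes described here are 34 genes of protein folding and quality control in the endoplasmic reticulum (ER), taken by name from the 43317 gene names on the arrays. They were listed after the ER protein MANF had been seen to be higher in 22RV1-shSPINK1 cells, so the ratios of shSPINK1 over shSCRM are given as a description, and calls of a test over all genes are only counted beside the share of all genes called. The cells were 22RV1, an established line of prostate cancer that expresses SPINK1, in which 3 short hairpins against SPINK1 had been stably introduced, 1 per line (22RV1-shSPINK1, hairpins 1, 2 and 3). Total RNA of each line, marked with Cy5, was hybridized against Cy3-labelled RNA of 22RV1 cells with a scrambled hairpin (22RV1-shSCRM), on 1 array per hairpin, 3 arrays in all. All the lines were transduced with lentivirus and kept in puromycin, each hairpin was represented by a single stable line, and no array had swapped dyes, so that a dye effect of a gene and an effect of the hairpins cannot be told apart. The values are log2 ratios after background correction with an offset of 50 and loess normalization, and the spread given is over the 3 arrays. The labels do not say whether separate cultures gave the shSCRM RNA of the 3 arrays.

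Proteins that enter the secretory pathway are folded in the ER by chaperones such as HSPA5 (BiP) and HSP90B1 (GRP94), by the lectin chaperones CALR and CANX, and by protein disulfide isomerases. When unfolded proteins accumulate, the membrane sensors ERN1 (IRE1), EIF2AK3 (PERK) and ATF6 set off the unfolded protein response, which lowers translation and raises transcription of chaperones and of genes for ER-associated degradation. ATF6 and spliced XBP1 act through short promoter elements, of which the best known is the ER stress element (ERSE), a CCAAT box and a CCACG box held a fixed distance apart.

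Promoter stretches that hold such elements are shown first. RefSeq windows of 250 bases upstream and 50 bases downstream of the transcription start (GRCh38.p14) were found for 32 of the 34 genes, SELK under its current symbol SELENOK, and not for PDIA3 and DERL1. The ERSE was searched as CCAAT, any 9 bases and CCACG, and its variant ERSE-II as ATTGG, any 1 base and CCACG, each exactly and on both strands. An ERSE was held by 7 of the 32 genes (21.9%) and by 0.0769% of all 35116 windows, and an ERSE-II by 3 genes (9.38%) against 0.0541% of windows. A gene counted if any of its windows held the element. The other share is per window, so the shares of genes and of windows are unlike measures, here and below. The stretches are written 5′ to 3′ along the gene, on the minus strand for HSPA5, PDIA6, XBP1 and HYOU1 and the plus strand for the others, with the element in capitals, and where it lies on the other strand the capitals show its reverse complement.
HSPA5 ERSE, chr9:125241376-125241424: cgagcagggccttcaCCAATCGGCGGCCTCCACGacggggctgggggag
HSP90B1 ERSE, distal, chr12:103930201-103930249: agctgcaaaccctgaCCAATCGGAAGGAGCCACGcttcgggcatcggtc
HSP90B1 ERSE, proximal, reverse, chr12:103930306-103930354: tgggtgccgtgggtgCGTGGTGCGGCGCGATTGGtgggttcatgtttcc
CALR ERSE, reverse, chr19:12938369-12938417: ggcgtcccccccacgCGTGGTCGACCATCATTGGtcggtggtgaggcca
CRELD2 ERSE, reverse, chr22:49918539-49918587: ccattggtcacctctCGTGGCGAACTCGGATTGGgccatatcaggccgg
CANX ERSE, chr5:179698763-179698811: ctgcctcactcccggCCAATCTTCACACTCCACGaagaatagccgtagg
PDIA6 ERSE, chr2:10812838-10812886: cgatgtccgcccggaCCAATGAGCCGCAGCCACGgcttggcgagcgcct
XBP1 ERSE, chr22:28800588-28800636: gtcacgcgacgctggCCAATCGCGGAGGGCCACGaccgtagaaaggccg
SDF2L1 ERSE-II, reverse, chr22:21642099-21642139: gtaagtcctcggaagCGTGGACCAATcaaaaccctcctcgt
HERPUD1 ERSE-II, chr16:56932010-56932050: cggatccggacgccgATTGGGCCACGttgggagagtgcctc
HYOU1 ERSE-II, distal, reverse, chr11:119057365-119057405: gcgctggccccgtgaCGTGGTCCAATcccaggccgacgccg
HYOU1 ERSE-II, proximal, reverse, chr11:119057259-119057299: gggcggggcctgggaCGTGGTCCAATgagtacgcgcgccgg

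The UPR element, searched as TGACGTGG, was in the windows of DNAJC10, TXNDC5 and HYOU1 (9.38% of the genes, 0.729% of windows), and in HYOU1 it overlapped the distal ERSE-II. The ATF4 composite element, searched as TGATGCAA, was in that of HERPUD1 (3.12% of the genes, 0.866% of windows). MANF, whose ratio led to the list, had no match to any of these letters. Its 250 upstream bases are shown because its value is the highest of the set, with its 3 CCAAT boxes in capitals.
MANF, chr3:51385041-51385290, plus strand: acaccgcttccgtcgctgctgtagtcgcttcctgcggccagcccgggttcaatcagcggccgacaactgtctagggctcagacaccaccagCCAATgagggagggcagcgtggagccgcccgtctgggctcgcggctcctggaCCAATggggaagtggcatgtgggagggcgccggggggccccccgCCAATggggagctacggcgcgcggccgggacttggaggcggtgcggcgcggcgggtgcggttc

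**Figure D1:**
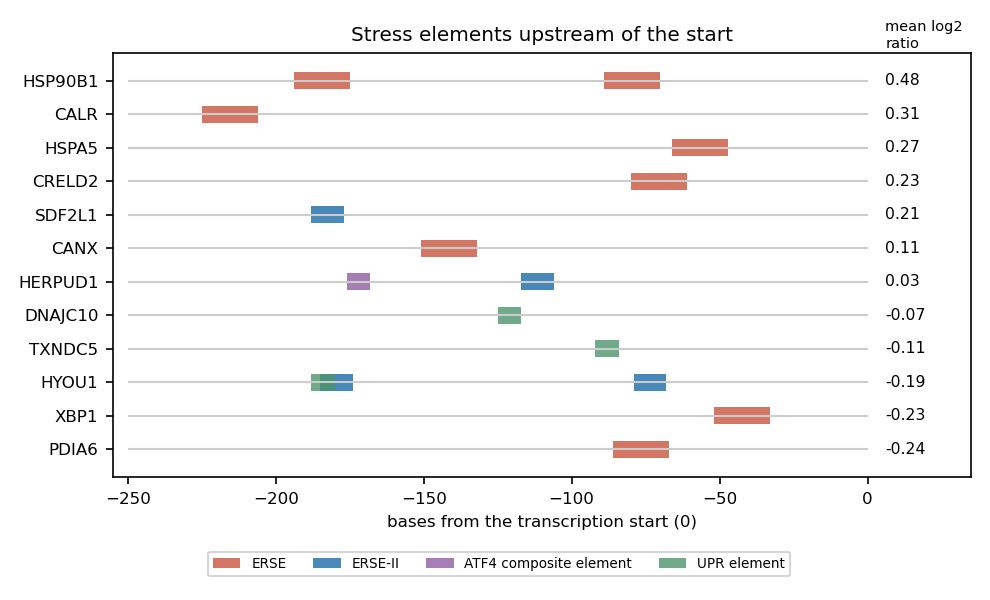
Positions of the exact matches in the 250 bases upstream of the transcription start (x axis, bases) for the 12 genes with any of the 4 elements, ordered by mean log2 ratio of shSPINK1 over shSCRM (right). CANX has windows for several starts and the match is shown in 1 of them. The 7 genes with an ERSE (red) run from HSP90B1 at 0.48 to PDIA6 at -0.24.

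All 34 genes were measured, each by a probe that Feature Extraction marked as well above background in Cy5 and in Cy3 on every array, and none of their spots was saturated. They have 45 probes on the array, of which 42 were kept, and the brightest stood for the gene. SPINK1 itself had log2 ratios of -3.71, -3.65 and -3.89 with hairpins 1, 2 and 3. Between 41.3% and 46.8% of gene spots in Cy5 and between 38.8% and 42.6% in Cy3 were well above background. The prostate epithelial markers KLK3, KRT8, KRT18 and EPCAM were measured, and of 11 markers of basal, immune, stromal and endothelial cells 5 passed the filter on dim probes (median -0.07), with KRT5, KRT14, TP63, CD3E, COL1A2 and PECAM1 not passing it.

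The ER genes did not move as one group. Their means ran from -0.37 for DERL1 to 0.59 for MANF with a median of -0.06, against a median of -0.01 for the 17059 genes tested. The 11 chaperones and their partners had a median of 0.21 (-0.10 where each array was centred on its median in place of loess, which put the median of all genes at -0.23), the 7 disulfide isomerases -0.12, the 6 sensors and effectors -0.06, the 8 degradation genes -0.13 and the 2 subunits of the translocation channel 0.09. On all 3 arrays 13 of the genes were higher, where 21.2% of all genes were, and 12 were lower, where 29.0% of all genes were. With Feature Extraction log ratios, 4133 of the 17059 genes were higher on all 3 arrays and 4262 lower. Of the 34 genes, 7 were higher and 8 lower on that scale. By limma with Benjamini-Hochberg adjustment over all genes, 4 were higher at an adjusted p under 0.05 (HSPA5, HSP90B1, CALR and MANF), with 4.77% of all genes called higher, and 2 were lower (PDIA3 and DERL1), with 8.71% called lower. MANF alone also had a mean beyond 0.5, where 0.322% of all genes were higher by this rule. None was below -0.5 (0 also at an unadjusted p under 0.05, by limma), where 0.393% of all genes were. Without the array of hairpin 3, 2 genes (HSP90B1 and MANF) were called higher and 0 lower by limma (2 lower at an unadjusted p under 0.05), with 1.03% and 1.72% of all genes called. Without that of hairpin 1, 4 were called higher and 11 lower, with 7.32% and 11.4% of all genes called. Since the list was drawn up from this contrast, nothing is read from these counts.

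**Figure D2:**
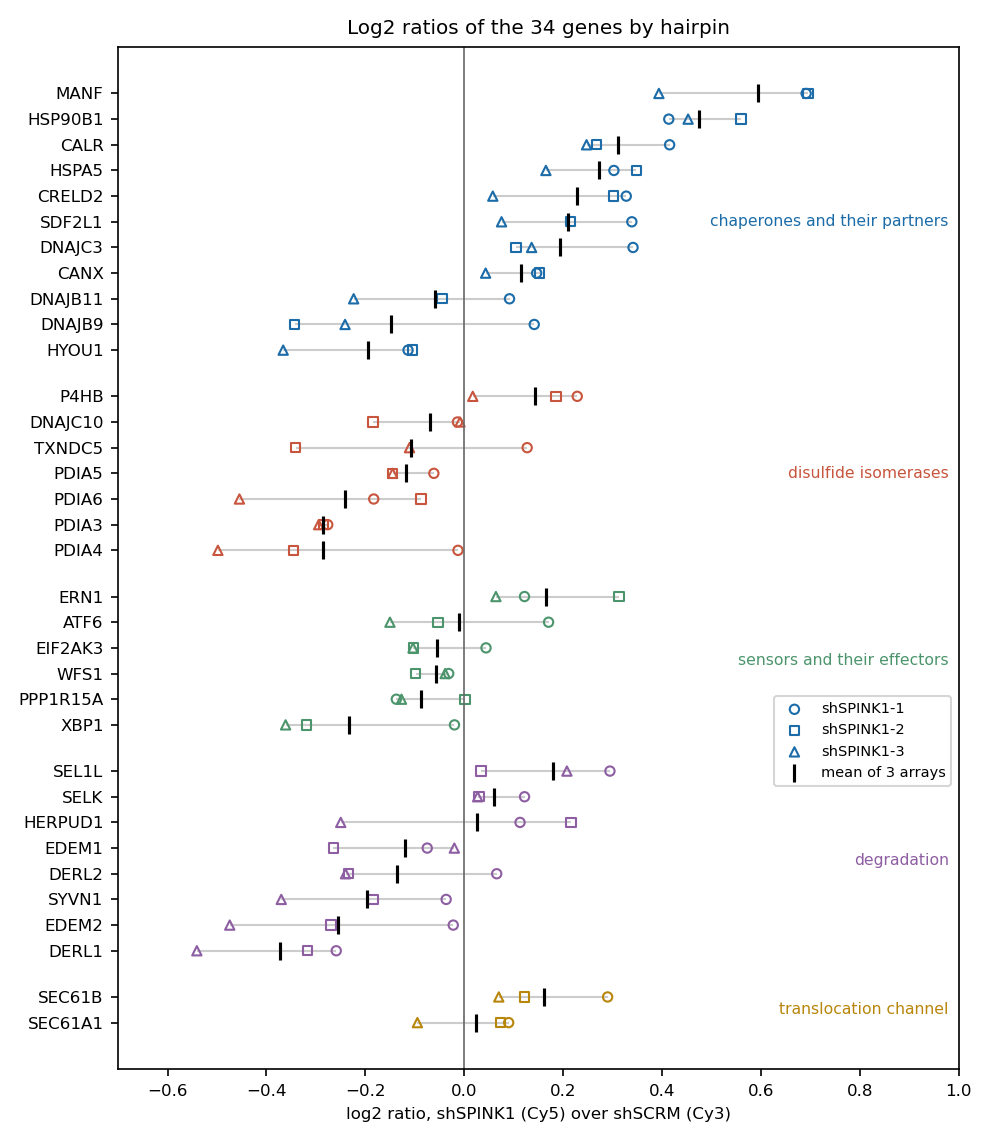
Log2 ratio of shSPINK1 over shSCRM (x axis) for the 34 genes, grouped by role and ordered by mean, with 1 open symbol per hairpin and a bar at the mean of the 3 arrays. Of the 11 chaperones and partners, 8 lie above 0 with every hairpin, where 21.2% of all genes do. Of the 7 disulfide isomerases, 5 lie below 0 with every hairpin, where 29.0% of all genes do. By Feature Extraction log ratios these counts are 5 and 3. HSP90B1 and CANX, among the 8, are drawn by their brighter probe, and their other kept probe has a mean below 0.

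Among the chaperones, HSPA5, the Hsp70 of the ER lumen that also holds the stress sensors inactive, had log2 ratios of 0.30, 0.35 and 0.17 with hairpins 1, 2 and 3. All the hairpins were above 0, and the mean of 0.27 ± 0.10 (SD, n = 3 arrays) is a ratio of 1.21-fold. Its probe lies on chromosome 9 between 127997149 and 127997208 (hg19, from the array's annotation) in the transcript NM_005347. HSP90B1, the Hsp90 of the ER, was at 0.41, 0.56 and 0.45, a mean of 0.48 ± 0.08 or 1.39-fold. This was the smallest SD of the 4 genes called higher, but the value rests on 1 of its 2 probes, as given below. CALR, a calcium-binding lectin chaperone that holds newly made glycoproteins, was at 0.42, 0.27 and 0.25 (mean 0.31 ± 0.09).

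MANF, a small ER protein that binds HSPA5 and is secreted under stress, was at 0.69, 0.70 and 0.39, with a mean of 0.59 ± 0.17 or 1.51-fold. These are the values that led to the list. MANF was the highest of the 34 genes with hairpins 1 and 2, and with hairpin 3 it lay below HSP90B1. MANF has 1 probe, on chromosome 3 between 51426687 and 51426746 (hg19, NM_006010). Its brightness in Cy5 was 33200, 27300 and 23700 and in Cy3 24500, 23000 and 26200, before any normalization.

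CRELD2, a further ER protein that is secreted under stress, was at 0.33, 0.30 and 0.06 (mean 0.23 ± 0.15). SDF2L1, a partner of the HSPA5 cycle, was at 0.34, 0.21 and 0.08 (mean 0.21 ± 0.13). In both, the value with hairpin 3 was close to 0 while the others were not. DNAJC3, a J-domain cochaperone also known as an inhibitor of PERK, was at 0.34, 0.10 and 0.14 (mean 0.19 ± 0.13). CANX, the membrane-bound counterpart of CALR, was at 0.15, 0.15 and 0.04.

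The remaining chaperones had means below 0. The J-domain protein DNAJB11 had values of 0.09, -0.04 and -0.22, and DNAJB9, which represses ERN1, had 0.14, -0.34 and -0.24. For these 2 cochaperones hairpin 1 was on the other side of 0 from hairpins 2 and 3. HYOU1, the nucleotide exchange factor of HSPA5, was below 0 with each hairpin, at -0.11, -0.10 and -0.37 (mean -0.19 ± 0.15).

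The disulfide isomerases, which form and rearrange disulfide bonds in nascent proteins, had means below 0 in 6 of 7 cases, where 54.0% of all genes did, and PDIA3 was the one called lower. PDIA3, the isomerase that works with CALR and CANX, had the most even values of all the genes, -0.28, -0.28 and -0.29 (mean -0.29 ± 0.01). PDIA4 was at -0.01, -0.35 and -0.50 (mean -0.29 ± 0.25), and PDIA6 at -0.18, -0.09 and -0.45 (mean -0.24 ± 0.19). The equal means of PDIA3 and PDIA4 thus hide a spread that differed widely between the hairpins. PDIA5 was lower on all the arrays by little, at -0.06, -0.15 and -0.14. TXNDC5 was at 0.13, -0.34 and -0.11, and DNAJC10, an ER reductase with a J domain, at -0.01, -0.18 and -0.01. P4HB, the founding member of the family and a subunit of prolyl hydroxylase, was the exception, with 0.23, 0.19 and 0.02 by its brighter probe.

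Of the sensors, ERN1 was above 0 with each hairpin at 0.12, 0.31 and 0.06 (mean 0.17 ± 0.13). This rests on its 1 kept probe, annotated to ENST00000433197, with a brightness in Cy5 of 100, 95.4 and 79.5. The ERN1 probe annotated to NM_001433 was not well above background on any array. EIF2AK3 was at 0.04, -0.10 and -0.10, and ATF6 at 0.17, -0.05 and -0.15, so that the mean of each differed from 0 by less than the SD over the arrays. XBP1, whose mRNA is spliced by ERN1, was at -0.02, -0.32 and -0.36 (mean -0.23 ± 0.19). The array carries its probe 10 times, which gives the error of a spot: the spots ranged from -0.09 to 0.05 with hairpin 1, from -0.41 to -0.24 over 9 unflagged spots with hairpin 2, and from -0.43 to -0.29 with hairpin 3. The spots of hairpin 1 thus did not overlap those of hairpins 2 and 3, a difference beyond the error within an array, whose SD was between 0.04 and 0.06, while each hairpin is 1 array. The probe does not tell spliced from unspliced XBP1, and none of the arrays' values measure the processing of ATF6 or the phosphorylation of EIF2AK3.

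PPP1R15A (GADD34), which directs the phosphatase that reverses the EIF2AK3 signal, was at -0.14, 0.00 and -0.13. WFS1, an ER membrane protein that restrains ATF6, was at -0.03, -0.10 and -0.04. After loess both stayed within 0.14 of 0 on every array. By Feature Extraction PPP1R15A was at -0.36, 0.09 and -0.36, and WFS1 at 0.06, -0.07 and -0.03, in the same order of hairpins. The PPP1R15A probe was dim, with a brightness in Cy5 of 43.5, 39.2 and 33.9 before any normalization. The offset of the background correction draws dim ratios toward 0, and its part in this difference was not tested. The small loess values of PPP1R15A are therefore not read as a lack of change.

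The degradation genes, whose products recognise, retrotranslocate and ubiquitinate misfolded proteins, had means below 0 in 5 of 8 cases, near the share of all genes, and DERL1 was the one called lower. DERL1, a channel component, was the lowest of the 34 at -0.26, -0.32 and -0.54 (mean -0.37 ± 0.15, or 0.773-fold). Its relative DERL2 was at 0.07, -0.23 and -0.24, and EDEM2, which trims mannose from misfolded glycoproteins, at -0.02, -0.27 and -0.47. For all of these the value with hairpin 1 was the highest. SYVN1 (HRD1), the ubiquitin ligase of the pathway, was at -0.04, -0.18 and -0.37, while SEL1L, its partner, was at 0.29, 0.03 and 0.21 by the brighter of 2 kept probes. After loess these partners within 1 complex thus lay on opposite sides of 0 on every array, though some of the values were close to 0. With median centring both means were below 0, at -0.55 for SYVN1 and -0.10 for SEL1L. EDEM1 was at -0.07, -0.27 and -0.02, HERPUD1, a stress-induced ligase adaptor, at 0.11, 0.22 and -0.25, and SELK, a selenoprotein of the ER membrane, at 0.12, 0.03 and 0.03. In the translocation channel, SEC61B was at 0.29, 0.12 and 0.07 and SEC61A1 at 0.09, 0.07 and -0.09.

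The ratio moved with the brightness of the probe. The brightest twentieth of all genes had a median log2 ratio of 0.13, where the others had medians between -0.05 and 0.02, and 9 of the 34 genes were in it: MANF, HSP90B1, CALR, SDF2L1, CRELD2, P4HB, SEC61B, HERPUD1 and XBP1. These 9 had a median of 0.21 and the other 25 a median of -0.09. Within that twentieth the trend was steep, so each gene was also set against the median of the 100 genes nearest to it in brightness, a step chosen after the trend was seen. That median was 0.37 for MANF, 0.37 for HSP90B1, 0.29 for CALR and 0.18 for SDF2L1, and -0.02 for HSPA5. Relative to it, MANF was at 0.22, HSP90B1 at 0.11, CALR at 0.02 and SDF2L1 at 0.03, whereas HSPA5 was at 0.30 and DNAJC3 at 0.26. By limma on these values HSPA5 and DNAJC3 were called higher, with 4.84% of all genes, and PDIA3 and DERL1 lower, with 5.71%, while MANF, HSP90B1 and CALR were not called.

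The log ratios made by Agilent's Feature Extraction gave another order, with a median of -0.01 for the brightest twentieth of genes. HSPA5 was then the highest of the genes at 0.34, 0.39 and 0.19 (mean 0.31 ± 0.10). With median centring, in contrast, HSPA5 was at -0.08, below 0 but above the median of all genes of -0.23. By Feature Extraction SEL1L (0.30), MANF (0.30), DNAJC3 (0.28) and CANX (0.25) followed, and neighbours in this order differed by less than their SD over the arrays. The value of CANX is that of its brighter probe, and its other kept probe had a mean of -0.45 on this scale. MANF was at 0.49, 0.37 and 0.03 on this scale. HSP90B1 was at 0.14 and CALR at 0.10 in the mean. By the probes that stood for the genes, DERL1 (-0.41), HYOU1 (-0.40) and PDIA4 (-0.31) were the lowest. The medians by role were 0.12 for chaperones, -0.14 for disulfide isomerases, -0.08 for sensors and -0.12 for degradation genes. The direction of 31 of the 34 means was unchanged, with DNAJB11, ATF6 and HERPUD1 crossing 0, and 0 genes were called by limma after adjustment, where 4 higher and 5 lower genes had an unadjusted p under 0.05. Of all genes, 0.0% were called higher and 0.0176% lower on this scale, so that the count of 0 says nothing about the 34 genes.

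**Figure D3:**
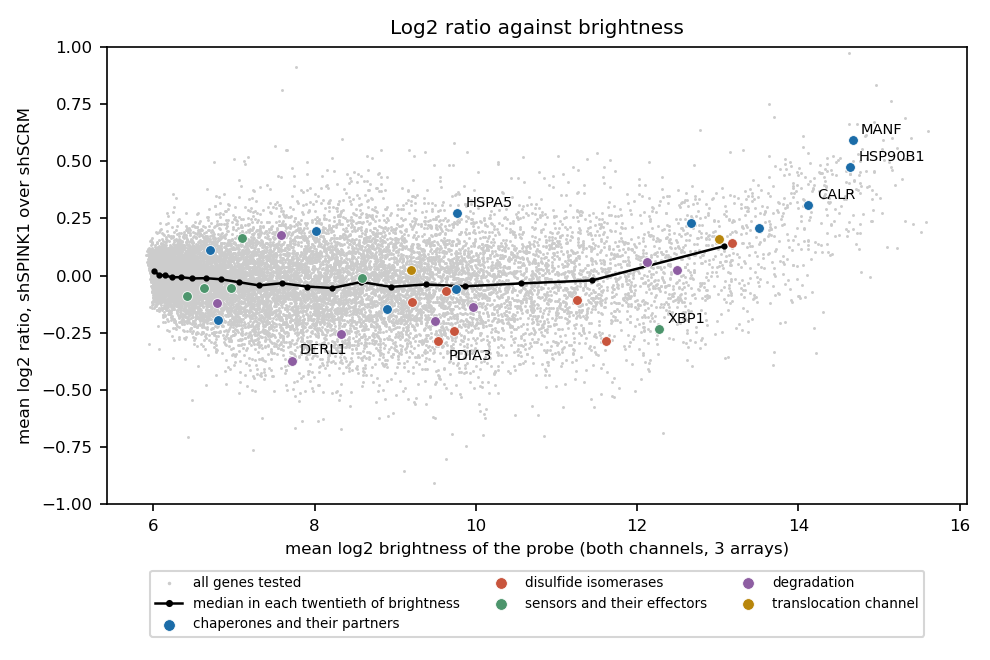
Mean log2 ratio against the mean log2 brightness of the probe for all 17059 genes (grey), with the 34 genes in color by role and the median of each twentieth of brightness as a line, and SPINK1 and MT3 below the range drawn. The line rises to 0.13 at its right end, where MANF, HSP90B1 and CALR lie, and HSPA5, PDIA3 and DERL1 lie where it is near 0.

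**Figure D4:**
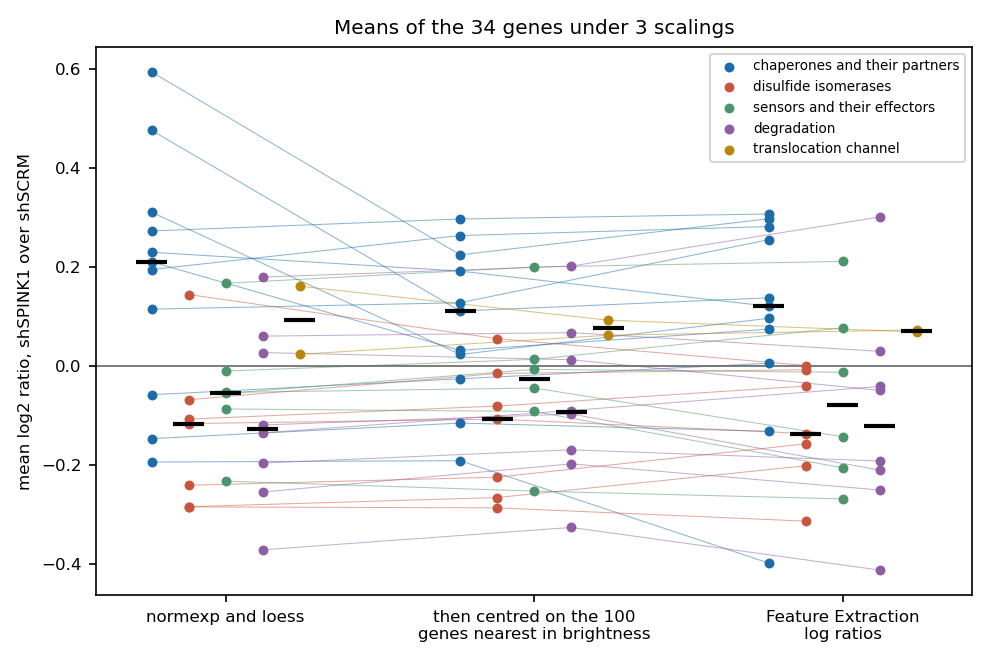
Mean log2 ratio of the 34 genes (points, joined for each gene) after loess, after centring on the 100 genes nearest in brightness and by Feature Extraction, with bars at the median of each role. The chaperone median goes from 0.21 to 0.11 and 0.12, and the medians of disulfide isomerases and degradation genes stay between -0.09 and -0.14.

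Hairpins 1 and 3 differed in a way shared by most of the genes. The log2 ratio was higher with hairpin 1 than with hairpin 3 in 30 of the 34, where 48.2% of all genes were, and the median difference was 0.22 against -0.01 over all genes. HSP90B1, DNAJC10, PPP1R15A and EDEM1 were the exceptions. Among the 34, the widest gaps were those of PDIA4 (-0.01 against -0.50), EDEM2 (-0.02 against -0.47) and DNAJB9 (0.14 against -0.24). In the lists of other ER genes given below, hairpin 1 was above hairpin 3 in 25 of 32 translocation and glycosylation genes. The same held for 28 of 44 folding genes, 15 of 29 degradation genes and 9 of 27 signaling genes. With Feature Extraction log ratios 31 of the 34 were higher with hairpin 1, where 47.8% of all genes were, and with centring within twentieths of brightness 32 were, where 51.2% of all genes were. The median of the brightest genes ran the other way, at 0.07 with hairpin 1, 0.14 with hairpin 2 and 0.15 with hairpin 3. Hairpin 2 lay between in the median (0.10, -0.05 and -0.10 for hairpins 1, 2 and 3). The shSCRM RNA was the control of both arrays, and since each hairpin was measured on 1 array, the difference has no replicate check.

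**Figure D5:**
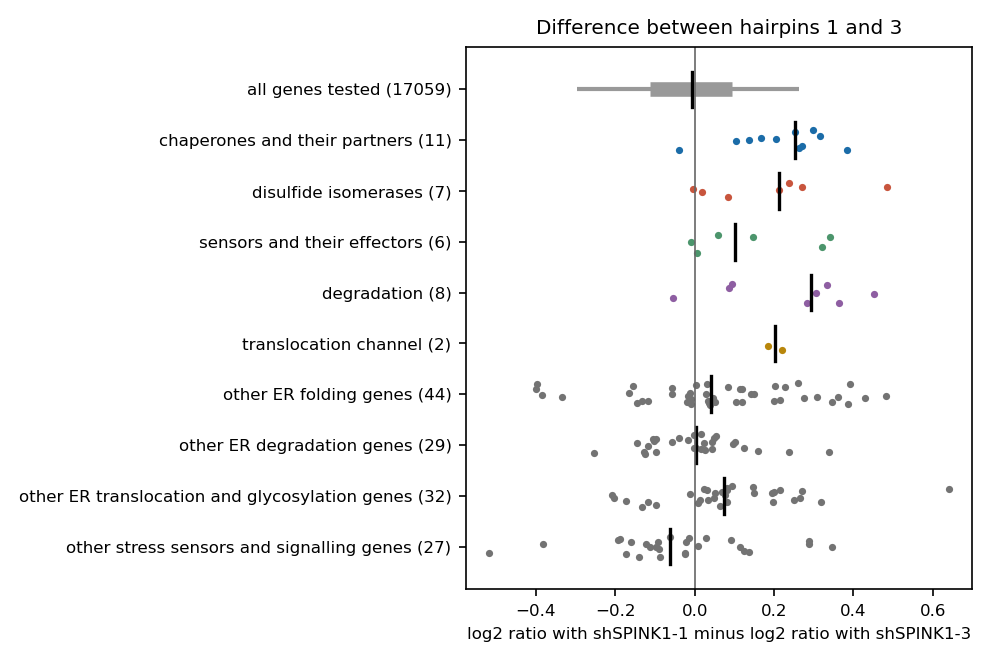
Log2 ratio with shSPINK1-1 minus that with shSPINK1-3 (x axis), 1 point per gene, for the roles of the 34 genes and 4 lists of other ER genes, with black bars at medians. For all genes tested the thick bar spans the 25th to 75th percentiles (-0.11 to 0.10) and the thin one the 5th to 95th (-0.30 to 0.26), and the medians of the 5 roles lie between 0.10 and 0.29. Those of the 4 lists lie between -0.06 for signaling genes and 0.07 for translocation and glycosylation genes.

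Genes with an ERSE or ERSE-II were compared with those without, as a description. The 10 genes with either had a median of 0.16 and the 22 with neither -0.06. All 10 were higher with hairpin 2 than with hairpin 3, among the other 22 genes 14 were, and 47.3% of all genes were. The 10 were not alike. CALR, HSPA5, CRELD2 and SDF2L1, and the brighter probes of HSP90B1 and CANX, were above 0 on every array, PDIA6, XBP1 and HYOU1 were below 0 on every array, and HERPUD1 crossed 0. Brightness moved with the elements too, since 6 of the 10 were in the brightest twentieth of genes against 3 of the 22, and its part in the difference was not tested. Set against the 100 genes nearest in brightness, the medians were 0.03 and -0.02, and by Feature Extraction 0.08 and -0.01. HSPA5, with its ERSE 48 to 66 bases before the start, kept a mean near 0.30 on each of these scales, while XBP1 and PDIA6, whose ERSEs also lie within 86 bases of the start, stayed below -0.15.

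Where a gene had more than 1 kept probe, the probes did not always match. Of 8 such genes, 3 had means of opposite sign after loess. By Feature Extraction 4 had, with DNAJC10 (-0.01 and 0.03) among them. The brighter HSP90B1 probe, on chromosome 12 between 104341536 and 104341595 (hg19), gave the values above, while the other, which the annotation places over a longer span, between 104337650 and 104340452, gave -0.02, 0.01 and -0.25. For CANX the brighter probe, on chromosome 5 between 179137006 and 179137065, was above 0 and the other, between 179158058 and 179158117, was at -0.23, -0.20 and -0.18. P4HB was at 0.14 by the brighter and -0.18 by the other probe. PDIA3 (-0.29 and -0.14), PDIA5, TXNDC5, DNAJC10 (-0.07 and -0.01) and SEL1L (0.18 and 0.06) had the same direction by both after loess. No direction is therefore given for HSP90B1, CANX and P4HB as genes, and the values stand for their brighter probes. With the mean of the kept probes, HSPA5, CALR and MANF were called higher, with 3.87% of all genes, and PDIA3 and DERL1 lower, with 7.7%.

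Other genes of the pathway, in lists that do not overlap the 34, were close to the median of all genes. Of 46 further folding genes 44 had a kept probe. Their median was -0.05, and 0 were called higher and 4 lower at an adjusted p under 0.05 by limma (2 and 11 at an unadjusted p under 0.05), against 4.77% and 8.71% of all genes. SERPINH1, the collagen chaperone, was the lowest at -0.62, -0.30 and -0.29. The highest was MCFD2, a partner of the cargo receptor LMAN1, at 0.50, 0.30 and 0.02 by the brighter of 2 kept probes. The other MCFD2 probe was at -0.15, -0.03 and -0.09, so no direction is given for MCFD2 as a gene. Of 31 further degradation genes 29 were measured (median -0.02), of which 2 were called higher and 5 lower, against the same shares of all genes. The ubiquitin ligase RNF5 was the lowest at -0.35, -0.78 and -0.69. It was the one gene of these lists called with a mean beyond 0.5, where 0.393% of all genes were lower by this rule. NGLY1, which removes glycans from retrotranslocated proteins, was the highest at 0.26, 0.45 and 0.23.

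All 32 translocation and glycosylation genes were measured (median 0.00), with 4 called higher and 2 lower, against 4.77% and 8.71% of all genes. SRP14, a subunit of the signal recognition particle, was the highest at 0.32, 0.50 and 0.50, but its probe is in the brightest twentieth and its mean was 0.44 by loess and 0.17 by Feature Extraction, where others of the list were higher. SRPR, the receptor of that particle, was the lowest at -0.08, -0.11 and -0.72. Of 28 further sensor and signaling genes 27 were measured (median 0.04), with 2 called higher and 2 lower, against the same shares of all genes. The apoptosis gene BAX was the lowest at -0.40, -0.31 and -0.31 by the brighter of 2 kept probes. Its other kept probe was at -0.08, 0.02 and 0.03. CHAC1, a target of the EIF2AK3 and ATF4 branch, was the highest at 0.59, 1.84 and 0.30. ATF4 (0.41, 0.63 and 0.42) and DDIT3 (0.29, 1.13 and 0.15), named after their values were seen, were likewise highest with hairpin 2. ATF4 is in the brightest twentieth too, with a mean of 0.49 by loess and 0.16 by Feature Extraction. Of the 34 genes, 23 were highest with hairpin 1, where 35.7% of all genes were.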

How the data were processed

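Log2 ratios of 3 two-color Agilent arrays were analysed. The authors deposited the scanner output of Agilent Feature Extraction 11.5.1.1, in which spot and local background intensity are not normalized, processed signal intensity is background-subtracted and dye-normalized, and a log10 ratio of Cy5 over Cy3 is given per spot. They also deposited a log2 ratio per gene name (Lowess per the methods). Between 83.3% and 84.8% of its values per array matched, to within 0.02, what the processed signals of a probe with that name give as log2 ratio. Its column medians were -0.12, -0.17 and -0.2 for hairpins 1, 2 and 3, and how it was centred is not given in the sources used here.

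Per the labels, poly(A) tails were added to total RNA before labelling, so that signal is not limited to polyadenylated RNA. Background was corrected in limma 3.58.1 (R 4.3.3) by normexp with an offset of 50, which draws dim ratios toward 0. Loess was run within each array with control spots at weight 0, outlier flags (0.203% of gene values) were set aside and spots of a probe averaged. A probe was kept when all 3 arrays had it well above background in the same channel, Cy5 or Cy3, and the brightest stood for a gene. The mean log2 ratio was tested against 0 with limma, with Benjamini-Hochberg adjustment over 17059 genes. How far control cultures vary is not part of this error, and the number of arrays limits the precision. No 2 arrays held the same values (at most 0.0345% of gene spots were equal in both channels). The fit was tested on simulated data. The 34 genes, their roles and the lists of other genes were chosen with earlier results of these data known. All 34 are given, and of each list the highest, the lowest and those called with a mean beyond 0.5. Promoters are those of RefSeq (GRCh38.p14), and probe positions those of the array's annotation (hg19). Alternatives covered background correction, normalization, source of values, filter, probe rule and leaving out each array.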

Additional observations from a re-analysis of the deposited data

How the results depend on the processing

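Higher and lower counts below are of the 34 genes called by limma at an adjusted p under 0.05, 4 and 2 with loess, and 1 and 0 with a mean beyond 0.5. Median centring in place of loess gave 2 higher and 22 lower, and 0 and 7 with the limit on size, with 60.6% of all genes called lower, and shifted the median of all genes to -0.23. The median of the 34 genes was then -0.31 (-0.06 with loess), and those of the other folding, degradation, translocation and signaling genes were -0.33, -0.32, -0.30 and -0.28. The Feature Extraction log ratios and the deposited table each gave 0 higher and 0 lower, also with the limit on size, with 9 and 7 genes at an unadjusted p under 0.05 and at most 0.0176% of all genes called in either direction, and the table put the translocation list at a median of 0.0317. No background correction and centring within twentieths of brightness each gave 0 genes with a mean above 0.5. Centring on the 100 genes nearest in brightness, chosen after seeing the data, gave 2 higher, 0 of them beyond 0.5, and a median of -0.0202 for the other folding genes. With each array left out in turn, 2 to 4 genes were higher and 0 to 11 lower, and 1 to 2 were higher with a mean beyond 0.5, while the share of all genes called ran from 1.03% to 7.32% higher and from 1.72% to 11.4% lower. The 11 lower genes were without replicate 1, and the 0 without replicate 3, where 2 had an unadjusted p under 0.05. The causes were not tested. By role, the medians moved by over 1 SD with median centring (chaperones -0.10, isomerases -0.47, sensors -0.25, degradation -0.40, channel -0.24), for chaperones with the deposited table (0.07) and for isomerases without replicate 1 (-0.23). In all, 76 of 420 means of the 34 genes and SPINK1 moved by over 1 SD, 41 of them other than by median centring. Of the 6 genes called with loess, HSPA5 changed sign, to -0.0822 with median centring. No paired analysis was possible because no other group of arrays exists to pair with: both RNAs were on the same array. Slide and scan as a block could not be run, since all arrays were on 1 slide and 1 scan. Signal over background limits the dim genes, such as CANX and HYOU1.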
